A study of Mus musculus with 20 samples.

Results

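Fos, Fosb, Jun, Junb, Jund, Egr1, Ier2, Ier3, Atf3 and Dusp1 are 10 mouse genes of the immediate-early response, taken by symbol after the Entrez numbers of the count files had been matched to names. All 10 were found among the 36528 gene models, and all 10 passed the filter on low counts that left 15390 genes for testing. They were measured by RNA sequencing in macrophages and in monocytes sorted from MC38 tumours, which grow from a transplantable mouse colon carcinoma line. The 4 groups were macrophages of control tumours, macrophages of tumours treated with anti-PD-L1 (aPDL1 in the labels), monocytes of control tumours and monocytes of anti-PD-L1 tumours, with 5 libraries each and 20 in all. PD-L1 is a ligand that holds back T cells through PD-1, and the antibody blocks it. All libraries were taken 7 days after treatment began. The sources used here do not give the mouse strain or age, the agent of the control mice, the sort gates or how tumours were made into single cells. Whether the 5 libraries of each group are 5 animals is not in the labels, and the p-values therefore speak only for differences among these libraries, which may be technical. All treated libraries also carry higher sample numbers than all control libraries, and treatment and anything running with that order cannot be told apart.

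Depth ran from 30191509 to 36514133 counts per library, so that a member was never near the floor of 3 counts. The sorted populations carried their defining genes. A list of 11 macrophage genes, C1qa, Adgre1 and Mertk among them, summed to 20800 to 34600 CPM (counts scaled to the TMM-adjusted library size) in macrophage libraries and to 6200 to 9710 CPM in monocyte libraries. A list of 9 monocyte genes, among them Ly6c2 and Ccr2, summed to 4680 to 10900 CPM in monocytes and to 476 to 666 CPM in macrophages. Fibroblast genes, such as collagens, were the largest sign of a further cell type in control libraries and ran with treatment. Their 19-gene sum was 145 to 2920 CPM in control macrophages against 90.8 to 491 CPM in treated ones, and 444 to 4550 CPM in control monocytes against 91.4 to 722 CPM in treated ones. In treated monocytes a sum of 9 neutrophil genes was larger by its median, 370 against 204 CPM. Of 7 genes of tumour epithelium, Epcam, Krt8, Krt18, Krt19, Cldn3 and Cldn4 stayed under 1 CPM in every library, but Cdh1 did not. The 7-gene sum, most of it Cdh1, was 26.6 to 55.2 CPM in control and 56.9 to 110 CPM in treated macrophages. In monocytes it was 28.9 to 42.7 CPM in control and 13.2 to 43.9 CPM in treated libraries.

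Immediate-early genes are transcribed within minutes of a stimulus without new protein synthesis, when MAP kinases activate factors that already sit in the nucleus. Fos and Jun proteins pair through leucine zippers to form AP-1, which drives inflammatory and wound-response genes in myeloid cells, while products such as Atf3 and Dusp1 damp the same response. Enzymatic dissociation of a tissue and sorting also switch these genes on, within the time it takes to prepare the cells. No library here came from undissociated tissue, so transcripts already present in the tumour and transcripts made during preparation cannot be told apart at any level reported below.

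Promoter sequences show which control elements the genes carry next to their start sites. The RefSeq table of GRCm38.p6, the build named by the submitters, gives 250 bases before to 50 bases after the start. These windows were read for 8 of the 10 members, all but Egr1 and Ier2. Printed here are Fos, the member that passed the treatment test in monocytes, Junb, the most abundant member of the Jun family, Atf3 and Dusp1, stress-response members without and with the whole cAMP response element, and Ier3, the member with the widest gap between cell types. They lie at chr12:85473640-85473939 on the plus strand (Fos), chr8:84978699-84978998 on the minus strand (Junb), chr1:191183284-191183583 on the minus strand (Atf3), chr17:26508423-26508722 on the minus strand (Dusp1) and chr17:35821463-35821762 on the plus strand (Ier3). Capitals mark the cAMP response element TGACGTCA, its shorter 5-base form TGACG or, on the other strand, CGTCA, and the TATA box TATAAA; the Ier3 stretch holds none of them.
Fos: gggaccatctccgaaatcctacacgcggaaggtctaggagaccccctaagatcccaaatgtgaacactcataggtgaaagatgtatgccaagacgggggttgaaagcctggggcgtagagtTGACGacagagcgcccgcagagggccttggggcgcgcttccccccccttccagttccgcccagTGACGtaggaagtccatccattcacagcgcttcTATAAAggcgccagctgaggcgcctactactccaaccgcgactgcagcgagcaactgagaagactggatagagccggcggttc
Junb: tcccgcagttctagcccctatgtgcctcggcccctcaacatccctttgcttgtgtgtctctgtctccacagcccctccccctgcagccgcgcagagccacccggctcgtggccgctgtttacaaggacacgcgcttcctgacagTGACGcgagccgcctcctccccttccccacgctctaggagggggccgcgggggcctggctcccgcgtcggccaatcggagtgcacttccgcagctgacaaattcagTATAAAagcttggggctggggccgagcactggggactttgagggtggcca
Atf3: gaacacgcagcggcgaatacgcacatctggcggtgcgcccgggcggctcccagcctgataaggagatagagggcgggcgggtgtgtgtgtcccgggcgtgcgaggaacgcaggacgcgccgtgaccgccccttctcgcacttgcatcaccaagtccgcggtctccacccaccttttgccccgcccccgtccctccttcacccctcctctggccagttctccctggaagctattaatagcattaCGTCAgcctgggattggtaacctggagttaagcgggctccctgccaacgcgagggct
Dusp1: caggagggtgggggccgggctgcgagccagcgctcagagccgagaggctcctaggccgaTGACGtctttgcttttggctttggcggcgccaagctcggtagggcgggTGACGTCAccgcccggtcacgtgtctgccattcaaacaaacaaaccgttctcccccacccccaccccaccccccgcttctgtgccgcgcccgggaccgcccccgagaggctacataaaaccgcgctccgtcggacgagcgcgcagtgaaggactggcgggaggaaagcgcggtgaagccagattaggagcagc
Ier3: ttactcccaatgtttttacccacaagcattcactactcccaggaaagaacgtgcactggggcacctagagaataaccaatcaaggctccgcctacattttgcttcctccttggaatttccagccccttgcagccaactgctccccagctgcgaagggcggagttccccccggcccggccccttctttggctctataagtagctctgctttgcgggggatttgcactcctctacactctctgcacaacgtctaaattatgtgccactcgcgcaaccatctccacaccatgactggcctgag

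The 5-base form was found on either strand in 5 of the 8 member promoters, namely Atf3, Dusp1, Fos, Fosb and Junb, against 20.8% of the 32851 promoters in the table. In Fos it began at -129 and at -66 from the start site, in Junb at -106, in Fosb at -60 and in Atf3 at -7. Dusp1 alone among the 8 held the whole element, at -143, where a 5-base form lies inside it on each strand; 1.79% of all promoters hold one. TATAAA stood in Fos at -33 and in Junb at the annotated start itself, against 13.6% of all promoters. The AP-1 site TGANTCA, present in 7.81% of promoters, and the core of the serum response element, present in 1.63%, were in 0 of the 8 windows. These are matches of letters in a short window and say nothing of factors bound there or farther away. The members are spread over the genome, with 3 of the 10 on chromosome 8 (Junb, Jund and Ier2) and 2 on chromosome 17 (Ier3 and Dusp1). Jun (chromosome 4, 95049036 to 95052222, minus strand) overlaps the antisense RNA Junos, which reached at most 1087 counts where Jun had 8056 to 23985, and Jund (chromosome 8, 70697739 to 70700616, plus strand) overlaps the antisense model Gm11175. The sources used here do not give the strand setting of the counting, so values of both genes are uncertain to that extent.

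All 10 members were abundant. Together they took 0.624% ± 0.0839 (SD, n = 5) of all counts in control macrophages and 0.585% ± 0.0327 in treated macrophages, against 1.08% ± 0.114 in control monocytes and 1.12% ± 0.0716 in treated monocytes. Per unit of length, on the authors' size-factor-adjusted RPKM scale (nRPKM), Junb and Fos headed the list in all 4 groups. Junb stood at 627 ± 79.3 nRPKM in control and 659.7 ± 60.4 in treated macrophages, and at 1438 ± 343 in control and 1568 ± 136 in treated monocytes, where its mean ranked 32 and 30 of 36528 models. Fos and Junb overlapped in all 4 groups, so their order was not settled in any of them.

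Below these, macrophages had Dusp1 (402 nRPKM in control, 405 in treated libraries), Ier3 (269.5 and 327), Atf3 (235 and 250.4) and Fosb (153 and 149). Ier2, Jun and Egr1 lay together near the bottom, between 95.99 and 99.8 nRPKM in both macrophage groups, with overlapping libraries. Jund came last in macrophages, at 44.97 ± 5.34 and 45.97 ± 6.14 nRPKM, below every library of the gene next in the order. Monocytes kept Junb, Fos, Ier3, Dusp1 and Atf3 as the upper 5, with Ier3 (941 in control and 1241 in treated monocytes) overlapping Fos (986 and 1249). Atf3, at 509.6 and 578.5 nRPKM, was separated from Ier2, at 217 and 243, in both monocyte groups. The lowest place was taken by Egr1 (101 ± 23.8) in control monocytes and by Jund (117 ± 14.98) in treated ones, and in both groups the lowest pair overlapped.

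Within the Jun family the make-up was similar in the 4 groups. Junb supplied 81.5% ± 2.25 and 82.2% ± 0.88 of the summed Jun, Junb and Jund nRPKM in control and treated macrophages, and 83.4% ± 1.67 and 83.4% ± 1.12 in control and treated monocytes. Fosb made up 19.2% ± 2.89 and 18% ± 1.24 of Fos plus Fosb in control and treated macrophages, and 15% ± 3.27 and 13.1% ± 1.09 in control and treated monocytes. The Fosb shares of treated macrophages, 16.8% to 19.7%, lay wholly above those of treated monocytes, 11.5% to 14.3%, while in control tumours the cell types overlapped. Neither share was tested.

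**Figure D1:**
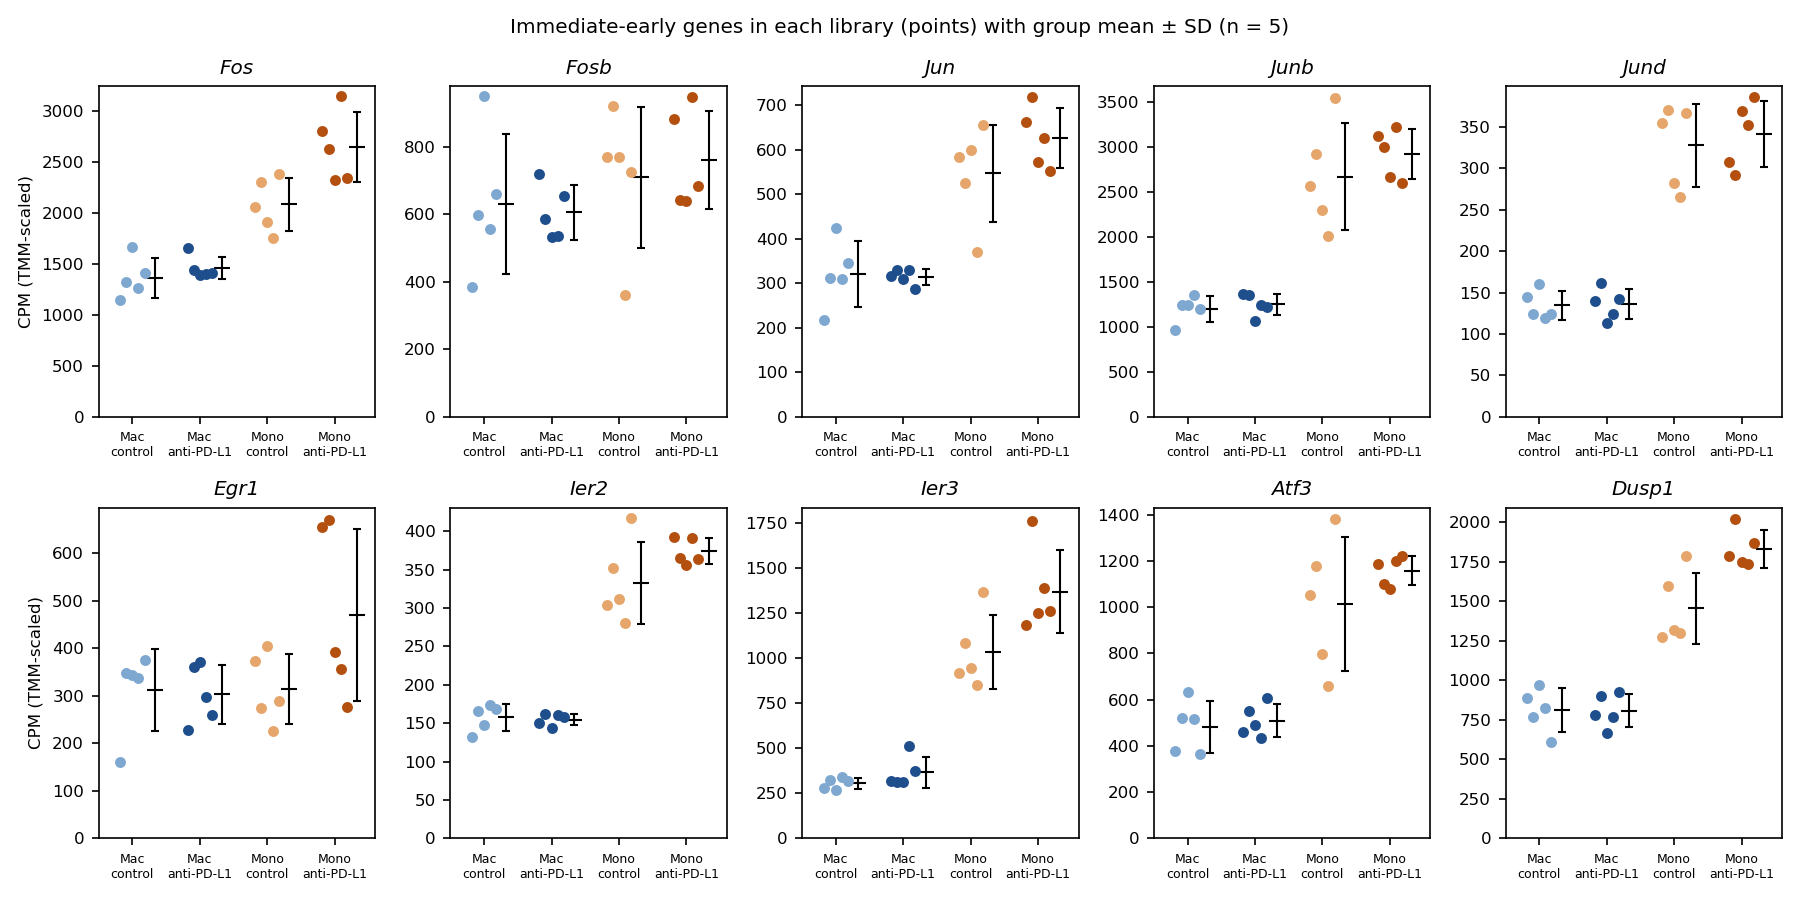
Level of each immediate-early gene in every library, in TMM-scaled CPM on a linear axis from 0; points are the 5 libraries of a group, and the black mark is the group mean with its SD. Monocyte libraries sit above macrophage libraries for 8 genes, with 1 overlapping monocyte library for Jun in control tumours, whereas Fosb and Egr1 overlap widely between cell types.

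The question of how the sorted populations differ was asked in control and in treated tumours separately. Immediate-early genes were lower in macrophages than in monocytes. In control tumours 8 of the 10 members were lower in macrophages by edgeR's quasi-likelihood test at a Benjamini-Hochberg adjusted p under 0.05, and 0 were higher, where 44.1% of all genes tested were called, 20% of them all as lower and 24% as higher. In anti-PD-L1 tumours 9 were lower and 0 higher, against 53.9% of all genes called, 25.7% as lower and 28.2% as higher. The median log2 fold change of the members, macrophage minus monocyte, was -0.96 in control and -1.18 in treated tumours, beside 0.00 and -0.01 for all genes. All macrophage libraries lay below all monocyte libraries for 7 members in control tumours, a pattern shown by 10.8% of genes, and for 8 members in treated tumours, shown by 22% of genes. The RNA came from sorted populations, so fewer cells with a high level and less RNA per cell cannot be told apart.

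Fos, whose protein is the partner that Jun proteins need for the most active AP-1 dimers, was among the 8. It stood at 1149, 1267, 1318, 1406 and 1669 CPM in control macrophages and at 1752, 1913, 2055, 2306 and 2382 CPM in control monocytes. In treated tumours it stood at 1386, 1398, 1409.8, 1439.5 and 1649.8 CPM in macrophages and at 2322, 2344, 2624, 2798 and 3143 CPM in monocytes. No macrophage library reached any monocyte library of the same treatment. The log2 difference, macrophage minus monocyte, was -0.61 (SE 0.12, edgeR adjusted p = 0.00034) in control and -0.86 (SE 0.12, edgeR adjusted p = 6.23e-06) in treated tumours.

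Fosb, a second Fos family protein, behaved otherwise. It ran at 385, 555, 599, 661 and 950.4 CPM in control macrophages and at 360.2, 725, 769, 769 and 921 CPM in control monocytes, so the lowest library of all was a monocyte one. In treated tumours it ran at 532, 536, 585, 655 and 720.1 CPM in macrophages and at 641, 642, 683, 883 and 948 CPM in monocytes. The groups overlapped in both settings. The log2 difference of -0.17 (95% interval -0.64 to 0.30, edgeR adjusted p = 0.573) in control and of -0.33 (95% interval -0.79 to 0.14, edgeR adjusted p = 0.231) in treated tumours did not pass.

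In the Jun family, all 3 members were lower in macrophages in both settings. Jun, the member that JNK phosphorylates to raise its activity, stood at 218, 309.6, 312, 345 and 424 CPM in control macrophages and at 371, 525, 583, 599.7 and 655 CPM in control monocytes. The highest macrophage library overlapped the lowest monocyte library there. Under treatment Jun stood at 287, 309, 316, 331 and 331 CPM in macrophages and at 553, 573, 626, 662 and 718 CPM in monocytes, with no overlap. Its log2 difference was -0.77 (SE 0.15, edgeR adjusted p = 0.000407) in control and -0.99 (SE 0.15, edgeR adjusted p = 1.92e-05) in treated tumours.

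Junb, often a weaker activator than Jun and the bulk of the family in these cells, stood at 963, 1200.1, 1238, 1239 and 1352 CPM in control macrophages and at 2013, 2296, 2559, 2916 and 3544 CPM in control monocytes. Treated macrophages had 1067, 1222, 1241, 1347 and 1363 CPM and treated monocytes 2600.5, 2659, 2998, 3122 and 3222 CPM. The lowest monocyte library was well above the highest macrophage library in both settings. Monocytes were 2.22 times higher in control and 2.34 times higher in treated tumours (log2 -1.15 and -1.23, edgeR adjusted p = 1.57e-06 and 4.93e-07). Jund, the family member usually present at a steadier level in resting cells, ranged from 112.8 to 161.1 CPM over both macrophage groups and from 265 to 386 CPM over both monocyte groups. Although it was the lowest Jun gene, its gap was the widest of the family, at -1.28 (SE 0.12, edgeR adjusted p = 1.27e-07) and -1.33 (SE 0.12, edgeR adjusted p = 5.18e-08) on the log2 scale.

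Egr1 encodes a zinc-finger factor that ERK signalling induces through serum response factor. It stood at 161, 337, 343, 348 and 375 CPM in control macrophages and at 225, 275, 289.6, 373 and 406 CPM in control monocytes. The cell types overlapped almost wholly, and the log2 difference of -0.004 had a 95% interval from -0.53 to 0.52 (edgeR adjusted p = 0.991). Treated macrophages had 227, 260.1, 297, 360.5 and 370.2 CPM and treated monocytes 276, 357, 393, 655 and 671 CPM. An upper pair of treated monocyte libraries stood apart, and of the other 3 only 1 lay above every treated macrophage library.

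The resulting log2 difference of Egr1 in treated tumours, -0.63 (SE 0.25, edgeR adjusted p = 0.0403), passed the test narrowly. It no longer passed in 12 of 20 fits that each left out 1 library. The adjusted p was 0.123, 0.0507, 0.0862 and 0.107 without treated macrophage libraries 1, 2, 4 and 5, and 0.149, 0.162 and 0.054 without treated monocyte libraries 1, 2 and 3. It was 0.0584, 0.0602, 0.0583 and 0.0569 without control macrophage libraries 2, 3, 4 and 5, and 0.0543 without control monocyte library 5. The log2 difference without any 1 library stayed between -0.75 and -0.44.

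Ier3 had the widest gap of all members. Its product is a small stress-induced protein that shapes cell survival and ERK signalling. Ier3 stood at 266, 278, 317, 323 and 342 CPM in control macrophages and at 850.4, 919.5, 947, 1082 and 1367 CPM in control monocytes. Treated macrophages had 313, 313, 319, 375 and 511 CPM and treated monocytes 1183, 1249.8, 1264, 1387 and 1761 CPM. No library of one cell type came near the other. Monocytes were 3.39 times higher in control tumours (log2 -1.76, SE 0.16, edgeR adjusted p = 5.76e-08) and 3.74 times higher in treated tumours (log2 -1.90, SE 0.16, edgeR adjusted p = 1.5e-08).

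Ier2, an immediate-early nuclear protein, ran from 131.9 to 174.2 CPM in macrophages and from 280.4 to 417 CPM in monocytes, and had the smallest coefficient of variation of the members in both treated groups, 4.90% in macrophages and 4.48% in monocytes. It gave the smallest adjusted p-values of the treated comparison, with a log2 difference of -1.08 (SE 0.10, edgeR adjusted p = 6.34e-08) in control and -1.27 (SE 0.10, edgeR adjusted p = 5.68e-09) in treated tumours. Atf3, a stress-induced factor of the ATF/CREB family that represses inflammatory genes in macrophages, stood at 364, 376, 517, 522 and 632 CPM in control macrophages and at 659.5, 799, 1053, 1178 and 1379.7 CPM in control monocytes. Treated macrophages had 435, 459.9, 490.4, 551 and 607 CPM and treated monocytes 1079.6, 1099.6, 1186, 1201 and 1219.8 CPM. The cell types did not overlap, but the control monocytes nearly came down to the highest control macrophage library. The log2 difference of Atf3 was -1.07 (SE 0.18, edgeR adjusted p = 7.16e-05) in control and -1.19 (SE 0.18, edgeR adjusted p = 1.62e-05) in treated tumours.

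Dusp1 is the phosphatase that switches off p38 and JNK, and it limits cytokine output of macrophages. It stood at 608, 769, 824, 891 and 971 CPM in control macrophages and at 1276, 1299, 1319.7, 1598 and 1786 CPM in control monocytes. Treated macrophages had 666, 766, 781, 902 and 927 CPM and treated monocytes 1734, 1751, 1788, 1869 and 2024 CPM. No macrophage library reached a monocyte library. The log2 difference was -0.84 (SE 0.13, edgeR adjusted p = 3.11e-05) in control and -1.18 (SE 0.13, edgeR adjusted p = 4.14e-07) in treated tumours.

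Libraries with neighbouring sample numbers, 1 macrophage and 1 monocyte library each, form 10 pairs. The monocyte library was the higher one in 10 of 10 pairs for 8 members and in 8 of 10 pairs for Fosb and for Egr1. The median paired log2 difference, monocyte minus macrophage, ran from 0.12 for Egr1 and 0.24 for Fosb to 1.79 for Ier3. The count of 8 lower members in control tumours held in 20 of 20 fits that each left out 1 library, and that of treated tumours stayed at 8 or 9. Without the 6 control libraries highest in fibroblast genes, 9 members were lower in control and 10 in treated tumours, Fosb included (log2 -0.52, edgeR adjusted p = 0.044, and log2 -0.32, edgeR adjusted p = 0.0411). That fit kept only macrophage libraries 2 and 4 and monocyte libraries 2 and 5 as controls. Fosb stayed uncalled in 10 of 11 alternatives in control tumours. In treated tumours it stayed uncalled in 9 of 11, so another alternative called it there too. Fibroblast genes did not separate the cell types in control tumours, where 0 of 19 passed the edgeR test and 0 had an unadjusted p under 0.05, with a list median of -0.51. In treated tumours 2 of 19 were lower in macrophages, with a median of -0.88. Neutrophil genes separated the cell types, with all 6 that could be tested lower in macrophages in both settings. Their 9-gene sum was 50.5 to 125 CPM in macrophages and 194 to 580 CPM in monocytes, while the neutrophil marker Ly6g stayed under 1 CPM in every group. The part of such cells in the difference was not tested.

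**Figure D2:**
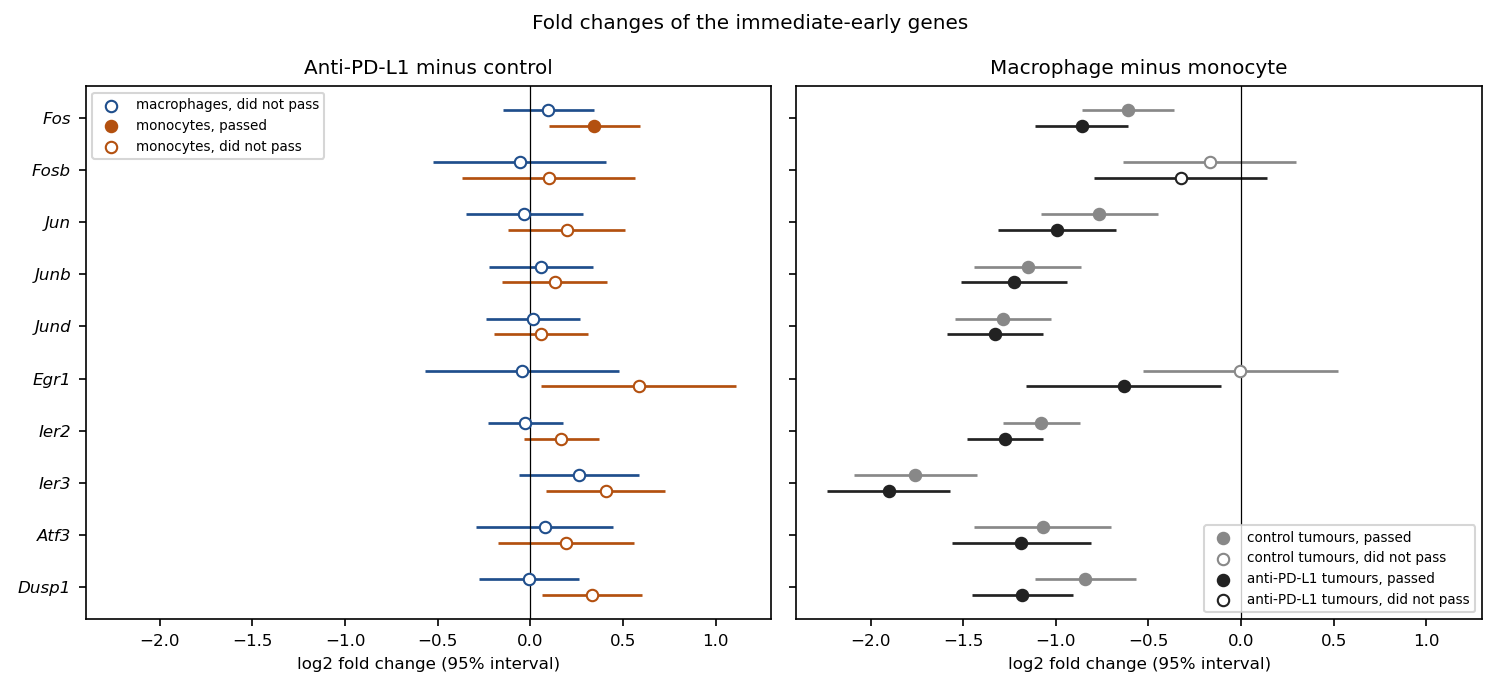
Fitted log2 fold changes of the 10 members with 95% intervals, for anti-PD-L1 minus control (left) and macrophage minus monocyte (right); filled points passed an adjusted p of 0.05 and open points did not. The treatment values crowd around 0 and only Fos in monocytes is filled, whereas the cell type values run down to -1.90 for Ier3 and only Fosb, and Egr1 in control tumours, are open.

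In macrophages the members did not move with anti-PD-L1 beyond the spread of the libraries. Of the 10 members 0 passed the edgeR test, and 0 had an unadjusted p under 0.05, where 4.65% of all genes were called, 1.73% as higher and 2.92% as lower. DESeq2 and limma-voom also called 0. The log2 changes, treated minus control, ran from -0.06 for Fosb to 0.26 for Ier3, with a median of 0.00 beside -0.01 for all genes. Fos changed by 0.10 (95% interval -0.15 to 0.34) and Junb by 0.06 (95% interval -0.22 to 0.34). The tightest interval was that of Ier2, from -0.23 to 0.18, and the widest that of Egr1, from -0.57 to 0.48. Ier3, at 0.26 (95% interval -0.06 to 0.59, edgeR adjusted p = 0.327), owed its value to treated macrophage libraries 4 and 5, at 511 and 375 CPM, while the other 3 lay among the controls.

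In monocytes 1 of the 10 members rose with anti-PD-L1 and 0 fell, where 25.3% of all genes were called, 9.92% as higher and 15.4% as lower. The member was Fos, from 2081 ± 264 CPM (SD, n = 5) in control to 2646 ± 341 CPM in treated libraries. The lowest pair of treated libraries, at 2322 and 2344 CPM, lay inside the control range, whose top was 2382 CPM. The log2 change of 0.35 (SE 0.12, 95% interval 0.10 to 0.59, edgeR adjusted p = 0.0386) is a 1.27-fold rise. With neighbouring sample numbers as a replicate block the value was 0.34 (limma-voom adjusted p = 0.0503), against an adjusted p of 0.0483 by the same method without the block.

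The call for Fos lay near the threshold and ended in 13 of 20 fits that each left out 1 library, while the log2 change in those 13 stayed between 0.27 and 0.34. Its edgeR adjusted p was then 0.132 without treated monocyte library 4, 0.093 and 0.0803 without treated monocyte libraries 1 and 2, and 0.126, 0.0936 and 0.0687 without control monocyte libraries 4, 3 and 1. Leaving out treated macrophage libraries 2, 3, 4 or 5 gave 0.0573, 0.0561, 0.0559 and 0.057, and leaving out control macrophage libraries 2, 4 or 5 gave 0.0552, 0.0522 and 0.0508, with a log2 change of 0.34 in each of these 7 fits. Without the 6 control libraries highest in fibroblast genes the change of Fos was 0.16 (edgeR adjusted p = 0.597), and with the fibroblast level as a covariate it was 0.26 (edgeR adjusted p = 0.486). The former fit kept only libraries 2 and 5 of the control monocytes, which were also the highest of them in Fos (2306 and 2382 CPM). Fibroblast level and the choice of these libraries cannot be told apart there. In those fits few genes of any kind were called, 83 and 3 of all tested. The part of fibroblast RNA in the change was not tested beyond these values.

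For the remaining members the values in monocytes all lay above 0 and did not pass. Egr1 had the largest, 0.59 (95% interval 0.06 to 1.11, edgeR adjusted p = 0.0943), which came from 2 treated libraries at 655 and 671 CPM, above the control range of 225 to 406 CPM. Ier3 followed with 0.41 (95% interval 0.08 to 0.73, edgeR adjusted p = 0.0597) and Dusp1 with 0.33 (95% interval 0.06 to 0.60, edgeR adjusted p = 0.0634). For Ier3 the blocked fit gave 0.41 with a limma-voom adjusted p = 0.0475. DESeq2 put Ier3 at an adjusted p of 0.0471 and Dusp1 at 0.0424, so it called 3 members in all. Without control monocyte library 5, the highest control library for 7 of the 10 members, 4 members passed, with edgeR adjusted p = 0.0135 for Ier3, 0.0228 for Dusp1, 0.0229 for Fos and 0.037 for Ier2. Egr1 passed without treated monocyte library 5 (log2 0.71, edgeR adjusted p = 0.048), Ier3 without treated macrophage library 4 (edgeR adjusted p = 0.0492) and Dusp1 without control macrophage library 5 (edgeR adjusted p = 0.0451).

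The rest were smaller, from 0.06 for Jund and 0.10 for Fosb to 0.20 for Jun, and the median of the 10 was 0.19 beside 0.02 for all genes. Scaling by total counts alone, which moved the median of all genes by -0.22, put Fosb, Jun, Junb, Jund and Ier2 below 0 in monocytes and left Fos at 0.14. That shift is larger in size than the median change of the members. Whether the treatment effect differed between the cell types was tested as its own contrast. Of the 10 members 0 passed, with 0 at an unadjusted p under 0.05, and 0% of all genes passed by edgeR; DESeq2 called 7 genes and the blocked limma-voom fit 8, again with 0 members. The widest value, that of Egr1, was -0.63 (macrophage minus monocyte, 95% interval -1.37 to 0.12), and that of Fos was -0.25 (95% interval -0.60 to 0.10).

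The members did not move alone between the cell types, as other lists of the same response show. These lists were drawn up with earlier results of these data known. Among 29 further immediate-early and dissociation-induced genes, 18 were lower and 2 higher in macrophages of control tumours, and 22 were lower and 1 higher in treated tumours. That is 69% and 79.3% of the list called, beside 44.1% and 53.9% of all genes. The nuclear receptor gene Nr4a1 fell from 2525 ± 706 CPM in control monocytes to 609 ± 171 CPM in control macrophages, a log2 difference of -2.05 (SE 0.21, edgeR adjusted p = 2.99e-07). Csrnp1 differed by -1.55 (edgeR adjusted p = 2e-07), the growth arrest gene Gadd45b by -1.39 (edgeR adjusted p = 2.64e-07) and the antiproliferative gene Btg1 by -1.18 (edgeR adjusted p = 1.15e-07). In treated tumours the survival gene Mcl1 differed by -1.16 (edgeR adjusted p = 5.63e-08) and Ppp1r15a, which helps restart translation after stress, by -1.26 (edgeR adjusted p = 4.18e-08). The median of the list was -0.77 in control and -1.16 in treated tumours.

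Heat shock genes, which dissociation of tissue also induces, did not share this direction. Of 13, 2 were higher and 0 lower in macrophages of control tumours, and 2 were higher and 2 lower in treated tumours, with medians of 0.03 and -0.07. The shares called were 15.4% and 30.8% of the list, beside 44.1% and 53.9% of all genes. The mitochondrial chaperonin genes Hspe1 (log2 0.51, edgeR adjusted p = 0.0174) and Hspd1 (log2 0.45, edgeR adjusted p = 0.0405) were the pair that was higher in control tumours. Under treatment they were again higher, by 0.90 and 0.56, while Dnajb1 was lower by -0.35 (edgeR adjusted p = 0.0084) and Hspa1a by -0.76 (edgeR adjusted p = 0.0448). Hspa1a and Hspa1b are near-identical, so their values are uncertain. The calls of this list varied with the libraries, from 0 to 2 in each direction in control tumours, and from 1 to 3 lower in treated tumours, when 1 library was left out.

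Other AP-1 genes mostly ran with the members. Of 13, 7 were lower and 1 higher in macrophages of control tumours, and 10 were lower and 1 higher in treated tumours, so that 61.5% and 84.6% of the list were called beside 44.1% and 53.9% of all genes. Without control monocyte library 5 the 7 lower calls became 4. Fosl2, which encodes the Fos relative Fra-2, went from 1238 ± 345 CPM in control monocytes to 399.8 ± 109 CPM in control macrophages (log2 -1.63, edgeR adjusted p = 1.84e-06). The small Maf genes Maff and Mafk differed by -1.49 (edgeR adjusted p = 3.27e-07) and -1.45 (edgeR adjusted p = 1.07e-06). Batf3 went the other way, by 1.29 (edgeR adjusted p = 5.23e-07) in control and 1.66 (edgeR adjusted p = 1.68e-08) in treated tumours. Batf3 is needed for a dendritic cell type that expresses Xcr1, and Xcr1 was also higher in macrophage libraries, at 18.1 ± 13.5 against 4.42 ± 2.28 CPM in control tumours (edgeR adjusted p = 0.00048). Of the 7 dendritic cell markers listed, 2 were higher in macrophages in each setting, while 3 were lower in control and 5 in treated tumours, with list medians of -0.82 and -2.38. The part of such cells was not tested.

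Upstream, 13 of 23 genes of the MAP kinase cascade and of the factors that start immediate-early transcription were lower in macrophages of control tumours and 2 were higher. In treated tumours 16 were lower and 1 higher. The shares called were 65.2% and 73.9% of the list, beside 44.1% and 53.9% of all genes. The changes were smaller than those of the members, with a median of -0.30 in both settings. Named by the smallest p in control tumours, Braf differed by -0.77 (edgeR adjusted p = 3.37e-05), Map2k4 by -0.63 (edgeR adjusted p = 6.05e-05) and Map2k3 by -0.93 (edgeR adjusted p = 0.000112). The factor gene Crem differed by -1.41 (edgeR adjusted p = 6.65e-06) in treated tumours.

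Of 14 feedback inhibitors of MAP kinases, 6 were lower and 1 higher in control and 8 lower and 1 higher in treated tumours. The 50% and 64.3% called are near the 44.1% and 53.9% of all genes. Dusp16, a phosphatase of JNK and p38 like Dusp1, went from 92.5 ± 22.7 CPM in control monocytes to 35.8 ± 4.98 CPM in control macrophages (log2 -1.37, edgeR adjusted p = 4.37e-07). Dusp5, which acts on nuclear ERK, differed by -0.95 (edgeR adjusted p = 0.000279). Inflammatory genes linked to AP-1 split. Of 16, 8 were lower and 3 higher in macrophages of control tumours, and 9 were lower and 1 higher in treated tumours. The 68.8% called in control tumours stands beside 44.1% of all genes, and the 62.5% in treated tumours is near 53.9%. Thbs1, which encodes thrombospondin, differed by -3.06 (edgeR adjusted p = 2.59e-08), Il6 by -3.67 (edgeR adjusted p = 2.7e-07) and Plaur, the urokinase receptor gene, by -1.82 (edgeR adjusted p = 3.36e-07) in control tumours. The collagenase gene Mmp13 was higher in macrophages, by 2.13 (edgeR adjusted p = 7.83e-08).

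**Figure D3:**
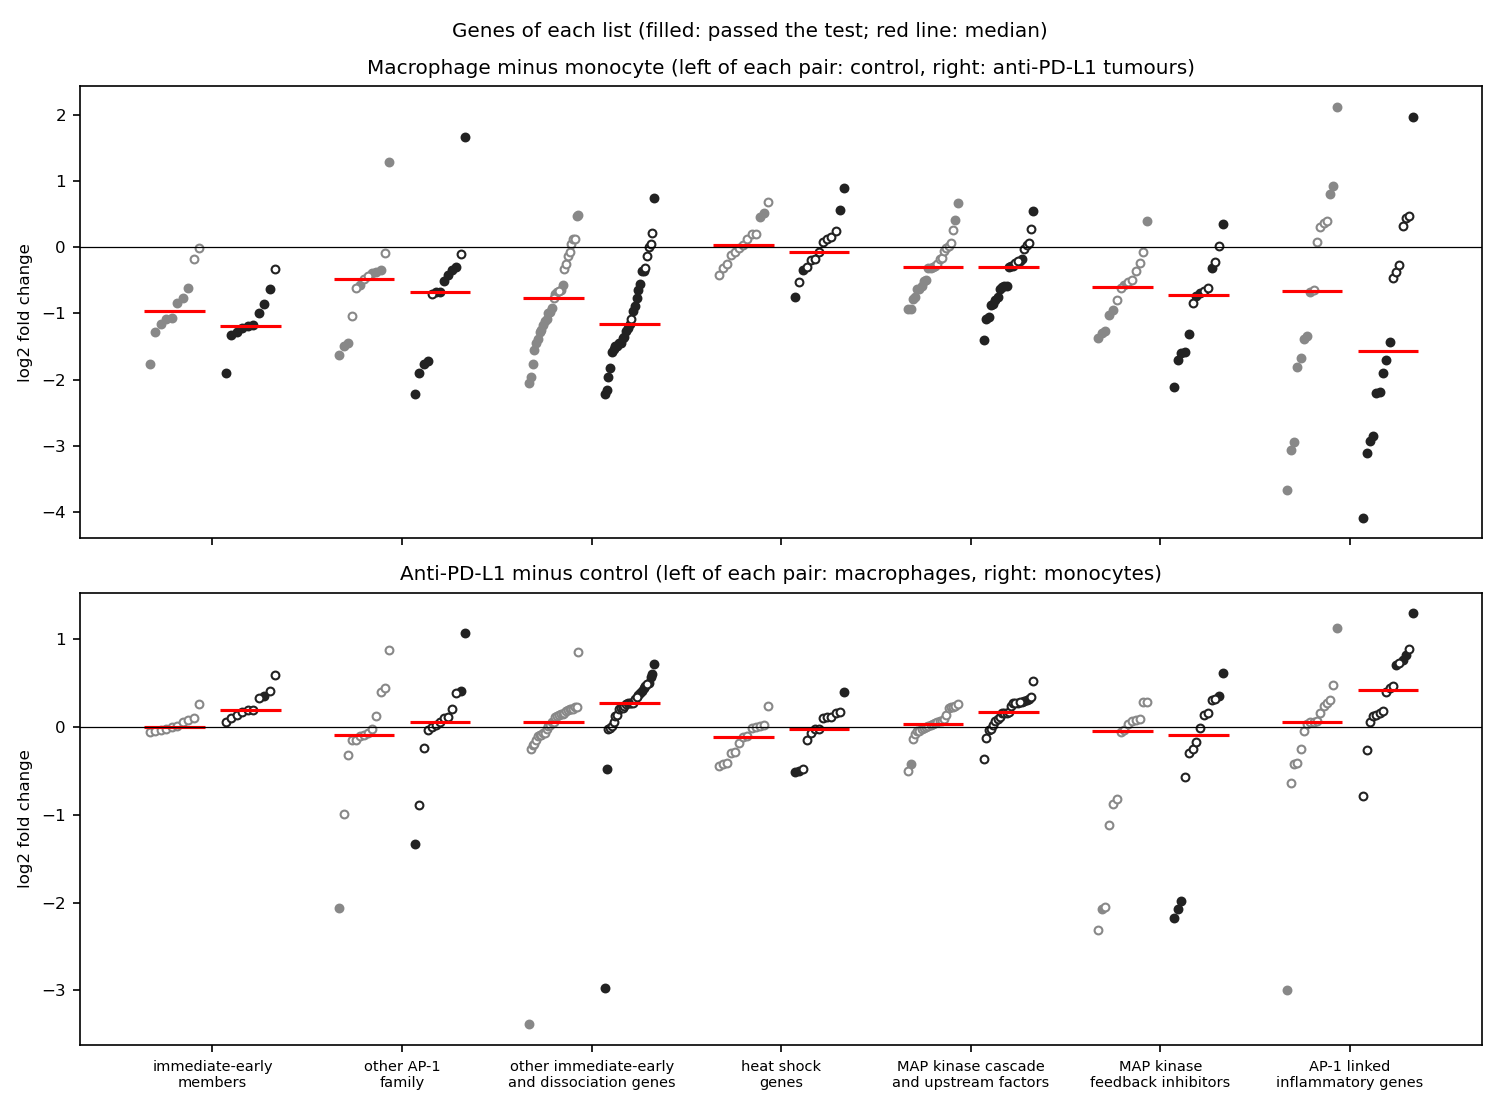
Log2 fold change of each gene of the members and of 6 related lists, for macrophage minus monocyte (top) and anti-PD-L1 minus control (bottom); filled points passed an adjusted p of 0.05, open points did not, and red lines are list medians. In the top panel the medians of the members are -0.96 and -1.18, and those of heat shock genes 0.03 and -0.07; in the bottom panel the medians of the members are 0.00 and 0.19.

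With treatment, 0 of the 29 further immediate-early and dissociation-induced genes rose and 1 fell in macrophages, whereas 9 rose and 2 fell in monocytes. The shares called, 3.45% and 37.9%, stand beside 4.65% and 25.3% of all genes, which were themselves called far more often in monocytes. The difference between the cell types was not shown, since 0 of the 29 passed the edgeR test of that difference (0 higher and 2 lower at an unadjusted p under 0.05; 0 by DESeq2). In monocytes the kinase gene Sgk1 rose from 298 ± 24.6 to 491 ± 70 CPM (log2 0.72, SE 0.13, edgeR adjusted p = 0.0036) and the zinc-finger gene Klf6 from 364 ± 36 to 551 ± 56.8 CPM (log2 0.60, SE 0.12, edgeR adjusted p = 0.00386), both with no overlap. Plk2 rose by 0.57 (edgeR adjusted p = 0.0136) and Btg1 by 0.40 (edgeR adjusted p = 0.0154). The list had 1 higher and 0 lower call without the 6 control libraries highest in fibroblast genes, and 0 calls with the fibroblast level as a covariate. Those fits called few genes of any kind, 67 higher and 16 lower of 15480, and 2 higher and 1 lower of 15390. The main fit called 3900 of 15390. Over the fits that each left out 1 library, 2 to 10 genes of the list rose. The count was 2 and 5 without treated monocyte libraries 2 and 4, and 4 and 3 without control monocyte libraries 3 and 4.

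The gene that fell in macrophages was Ccn1, a matricellular gene, from 28.3 ± 20.1 to 2.74 ± 3.67 CPM (log2 -3.39, edgeR adjusted p = 0.0476). Fosl1, which encodes Fra-1, was likewise the only other AP-1 gene called in macrophages (log2 -2.06, edgeR adjusted p = 0.0397). That is 7.69% of its list, beside 4.65% of all genes. Fibroblast genes fell as well, 11 of 19 in macrophages and 14 of 19 in monocytes. Neither list had a call in macrophages once the 6 control libraries were left out. That fit called few genes of any kind, 64 higher and 6 lower of 15480, where the main fit called 715 of 15390. The part of fibroblast RNA in these changes was not tested. In monocytes, among the other AP-1 genes, Batf2 rose by 1.07 (edgeR adjusted p = 0.00766) and Batf by 0.41 (edgeR adjusted p = 0.0383), and Atf5 fell by 1.33 (edgeR adjusted p = 0.00551). The 2 higher calls became 1 without treated monocyte library 1, 3, 4 or 5 and without control monocyte library 1, 2 or 3. The 3 calls of 13 are 23.1%, near the 25.3% of all genes.

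In monocytes 5 of 23 genes of the MAP kinase cascade rose, by at most 1.24-fold among those named (Mapk9, Mapkapk2 and Creb1, the last with log2 0.29 and edgeR adjusted p = 0.0456), and 0 fell, a share of 21.7% beside 25.3% of all genes. Of the feedback inhibitors 2 rose and 3 fell, 35.7% of the list. Dusp16 rose by 0.61 (edgeR adjusted p = 0.00722) and Dusp6 by 0.35 (edgeR adjusted p = 0.0226), while Dusp14 fell by 2.07 (edgeR adjusted p = 0.0106) and Spry1 by 1.99 (edgeR adjusted p = 0.0318). Of the inflammatory genes 4 rose: Mmp13 by 1.29 (edgeR adjusted p = 0.00325), Cxcl2 by 0.70 (edgeR adjusted p = 0.0116), Ccl3 by 0.82 (edgeR adjusted p = 0.019) and Ccl4 by 0.76 (edgeR adjusted p = 0.0414). These 4 of 16 are 25%, no more than the share of all genes. The 5 MAP kinase calls became 0 without control monocyte library 3 or 4, 8 without control monocyte library 2 or 5, and 2 or 3 without any other library except treated monocyte 5. The 4 inflammatory calls became 2 without treated monocyte library 2 or control monocyte library 4 and 8 without control monocyte library 5. Of the feedback inhibitors 1 rose and 1 fell without treated monocyte library 1, 2 or 4, and 1 fell without control monocyte library 3 or 4. All 3 lists had 0 calls in monocytes with the fibroblast covariate and without the 6 control libraries. Few genes of any kind were called there, 2 higher and 1 lower of 15390 and 67 higher and 16 lower of 15480. In macrophages Mapk8, which encodes a JNK, fell by 0.42 (edgeR adjusted p = 0.0397) and Dusp14 by 2.07 (edgeR adjusted p = 0.0437), the single calls of their lists. Mmp13 also rose in macrophages, from 74.6 ± 12.5 to 162.8 ± 22.3 CPM (log2 1.13, edgeR adjusted p = 0.0178), whereas Mmp9 fell by 2.997 (edgeR adjusted p = 0.0415). The macrophage shares of the MAP kinase, feedback and inflammatory lists were 4.35%, 7.14% and 12.5%, beside 4.65% of all genes. The macrophage calls of Ccn1, Fosl1, Mapk8, Dusp14 and Mmp9 all ended without treated macrophage library 1, 3, 4 or 5 and without control macrophage library 1 or 5.

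Among themselves the members rose and fell together across libraries of the same group, but unevenly. Over the 20 libraries, after subtracting each group's mean from log2 CPM, the correlation between 2 members had a median of 0.419 over the 45 pairs and ran from -0.37 for Jund with Egr1 to 0.883 for Junb with Ier2. Fos and Fosb correlated at 0.833 and Jun with Egr1 at 0.705. The points share library depth and cell make-up, and the values are a description. Junb had the highest median correlation with the other members (0.63) and Ier3 the lowest (0.22). Much of this came from monocyte control library 4 and macrophage control library 1, which are neighbours in sample number and lowest in the members by mean standardised deviation. Fosb, for example, stood at 360 CPM and 385 CPM in them and at 532 CPM or more in every other library. Without both, the median over the pairs was 0.278, with 13 of 45 negative; Junb with Ier2 kept 0.803 and Fos with Fosb 0.804, while Fosb with Jun went from 0.766 to 0.316. The libraries highest by the same measure were monocyte control 5 and macrophage control 3.

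**Figure D4:**
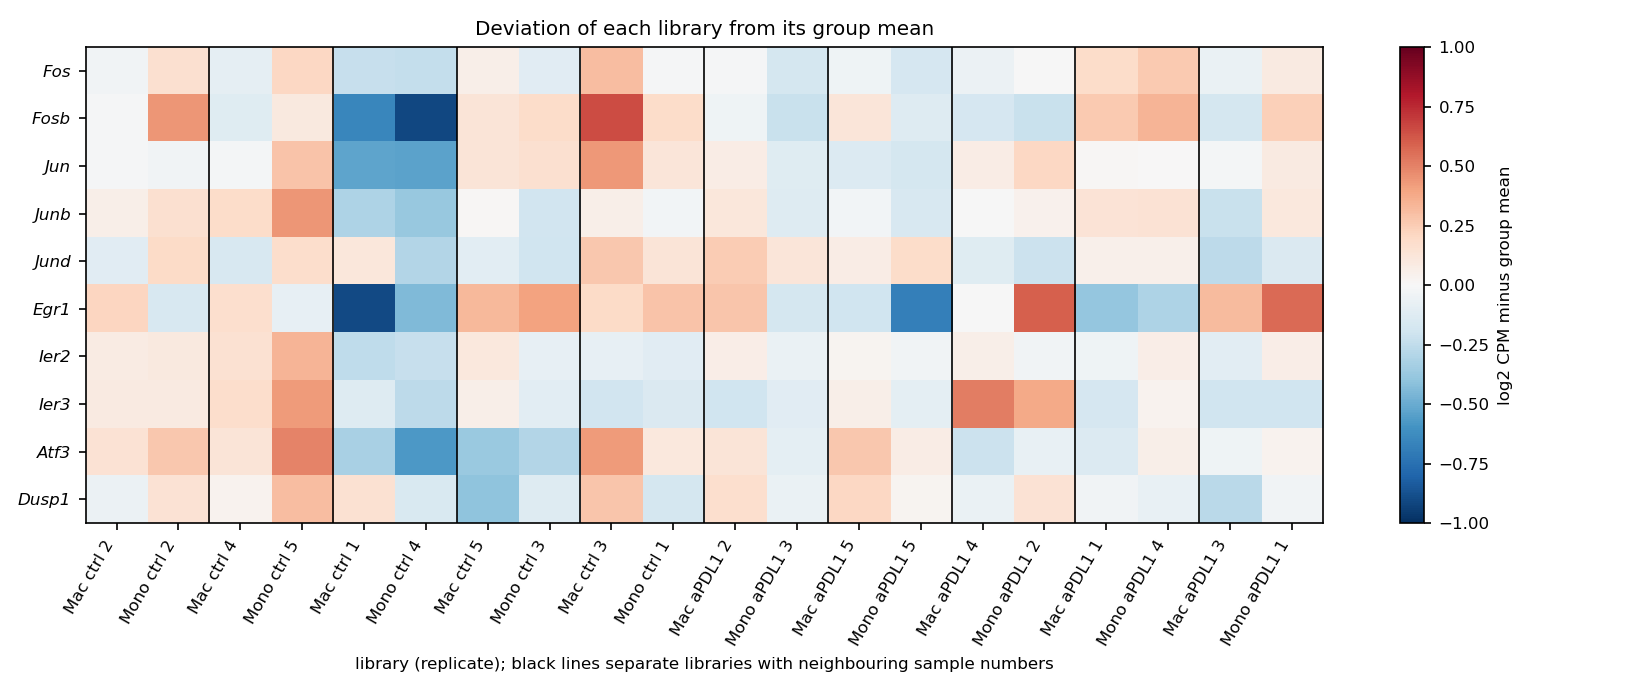
Log2 CPM of each member minus its group mean, for the 20 libraries ordered by sample number, where black lines part the 10 pairs of neighbouring numbers; red is above and blue below the group mean, cut at 1. Macrophage control 1 and monocyte control 4 are blue for most members, and Egr1 and Ier3 vary apart from the rest in the treated libraries.

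Measured the same way over the 20 libraries, the mean standardised deviation of the members was correlated with the levels of other lists. The value was 0.826 for the 29 further immediate-early and dissociation-induced genes and 0.872 for the MAP kinase list, but 0.048 for the heat shock genes. Monocyte control library 4 and macrophage control library 1 were the lowest of their groups in the list of 29 and in the MAP kinase list too. Correlations by this measure, those with single genes below included, were not computed without them. With the fibroblast genes the correlation was -0.424 and with the TMM scaling factor -0.594. The part of either in the members' levels was not tested. The 6 genes most like the members by this measure, of 10407 compared over 20 libraries, were Zfp703 (0.941), Pim1 (0.913), Stat5b (0.911), Mafk (0.903), Myd88 (0.903) and Oxsr1 (0.899). Between cell types, all but Zfp703 were called lower in macrophages of control tumours, and all were in treated tumours. Of all genes, 20% and 25.7% were called lower there. In control tumours Pim1, a survival kinase gene, differed by -1.71 (edgeR adjusted p = 1.33e-06). Myd88, the adaptor of Toll-like receptors, differed by -0.89 (edgeR adjusted p = 7.06e-05). Zfp703 differed by -0.26 (edgeR adjusted p = 0.152) in control and by -0.40 (edgeR adjusted p = 0.0256) in treated tumours.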

How the data were processed

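The 20 libraries were prepared from 0.1 ug of input each; the labels' protocols name a stranded kit for total RNA, whereas the molecule label reads polyA RNA. Reads were aligned with GSNAP to GRCm38, per the submitters' processing notes; the sources used here do not give versions, annotation, counter or strand setting. The authors deposited a count per Entrez gene and a size-factor-adjusted RPKM, which was checked to be the count divided by a length and by 1 factor per library. Symbols matched 31049 of 36528 models (85%), which hold 97.97% of the counts. Counts were tested with edgeR 4.0.16 in R 4.3.3 (low-count filter, TMM scaling, quasi-likelihood fit with 1 mean per group over 20 libraries, Benjamini-Hochberg adjustment over 15390 genes, call at 0.05). CPM values divide counts by the library total (30191509 to 36514133 counts) times its TMM factor (0.838 to 1.181), and correlations use log2 CPM with a prior count of 2. The edgeR test did not use pairs. Neighbouring sample numbers served as pairs in the paired differences and as the replicate block of a limma-voom fit (correlation within blocks 0.53). Within all 10 pairs the deviations from the group means correlated (r = 0.345 to 0.756 over 10417 genes). Libraries that are not neighbours were not compared in this way. The labels do not state what neighbours share. DESeq2 1.42.0, limma 3.58.1 and other filters, scalings and libraries were alternatives. From each related list the text names the 4 genes with the smallest p among those called, or fewer, and the 6 most like genes by correlation; Hspa1b and the examples of cell type markers were named outside that rule, and 1 gene it picks is not reported here. The members, lists and tests were chosen with earlier results of these data known.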

Additional observations from a re-analysis of the deposited data

Results flagged for a closer look

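Of the 40 sets of 5 libraries that the 10 members form over 4 groups, 2 held a library far from the other 4, past Dixon's 95% critical value of 0.71 for the gap over the range; chance gives about 1 in 20. Fos in treated macrophage library 1 stood at 1649.8 CPM, above the other 4 at 1386.1 to 1439.5 CPM, with a gap of 0.797 of the range. Egr1 in control macrophage library 1 stood at 160.52 CPM, below the other 4 at 336.56 to 374.9 CPM, with a gap of 0.821 of the range. That library is also the lowest of its group for Fos, Fosb, Jun, Junb and Ier2.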

How the results depend on the processing

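Cell type results were the steadier ones. The number of members lower in macrophages was 8 to 9 in control tumours and 8 to 10 in treated tumours over 11 alternatives, and 8 to 8 and 8 to 9 when 1 library was left out. Members called with treatment stayed at 0 in macrophages, and at 0 for the difference between cell types, under every alternative run. In monocytes the count of 1 became 3 with DESeq2 and 0 without the filter, with only the groups compared, with the fibroblast covariate, without 6 fibroblast-rich control libraries, with total counts and with limma on the deposited RPKM; it was 0 to 4 when 1 library was left out. With neighbouring sample numbers as a replicate block Fos had an adjusted p of 0.0503 and Ier3 of 0.0475 in monocytes, and the call of no other member changed. Fos in monocytes was also not called without the filter (adjusted p = 0.0886), with only the groups compared (0.132), with total counts (0.349) and on the deposited RPKM (0.0522). Egr1 between treated cell types was not called without the filter (0.0578), with limma-voom (0.0707), with total counts (0.128) and on the deposited RPKM (0.0608). Total counts and the RPKM fit were added after the data were seen.

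Values that changed sign were uncalled and, once changed, at most 0.287 in size. For treatment in macrophages the log2 changes became -0.042 for Fos, -0.079 for Junb, -0.124 for Jund and -0.055 for Atf3 with total counts, 0.07 for Fosb, 0.018 for Jun, -0.056 for Junb, -0.029 for Atf3 and 0.019 for Dusp1 without the 6 libraries, 0.01 for Fosb, 0.015 for Jun, 0.007 for Egr1 and 0.016 for Dusp1 on the RPKM, -0.154 for Junb, -0.013 for Ier3 and -0.149 for Atf3 with the covariate, 0 for Jun with limma-voom, and 0.009 for Dusp1 with DESeq2 and with RLE scaling. In monocytes they became -0.138 for Fosb, -0.165 for Junb, -0.128 for Jund, -0.059 for Ier2 and -0.163 for Atf3 without the 6 libraries, -0.107 for Fosb, -0.016 for Jun, -0.065 for Junb, -0.14 for Jund and -0.034 for Ier2 with total counts, and -0.087 for Junb and -0.032 for Atf3 with the covariate. The difference of the effects became 0.018 for Fos, 0.208 for Fosb, 0.109 for Junb, 0.287 for Jund and 0.134 for Atf3 without the 6 libraries, and 0.016 for Jund with total counts. Egr1 between control cell types became 0.013 without the filter, 0.269 without the 6 libraries and 0.063 with total counts. When 1 library was left out, macrophage treatment ran from -0.147 to 0.174 for Fosb, -0.103 to 0.123 for Jun, -0.002 to 0.126 for Jund, -0.173 to 0.087 for Egr1, -0.051 to 0.068 for Ier2 and -0.053 to 0.102 for Dusp1, monocyte treatment from -0.089 to 0.214 for Fosb and -0.024 to 0.108 for Jund, the difference from -0.27 to 0.09 for Fosb, -0.175 to 0.075 for Junb, -0.094 to 0.088 for Jund and -0.228 to 0.069 for Atf3, and Egr1 between control cell types from -0.137 to 0.141. Total counts moved the median of all genes by -0.138 and -0.217 for treatment in macrophages and monocytes and by 0.15 between treated cell types; no other cause was tested. Depth limited no member, since all lay far above the floor of 3 counts.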
